A study of Mus musculus with 40 samples.

Results

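The mRNAs of the CXCR3 ligand chemokines Cxcl9, Cxcl10 and Cxcl11 were followed in bone marrow-derived macrophages (BMDMs) during a response to lipopolysaccharide (LPS). The members were the rows of the expression table that carry these 3 gene symbols, 3 of 27179 genes. Macrophages were grown for 7 days in L-cell conditioned medium from adult male mice of a mixed C57BL/6J and 129 background, either WT or lacking the RNA-binding protein CPEB4 in all cells (Cpeb4-/-). They were left untreated (0 hr) or given 10 ng/ml LPS of E. coli 0111:B4 for 1, 3, 6 or 9 hr, and poly(A) RNA was sequenced. Each of the 8 mice (WT mice 25, 88, 69 and 87, Cpeb4-/- mice 3, 62, 2 and 55) gave 1 library per time, so that 40 libraries form 10 groups of 4. Mice 25, 88, 3 and 62 were batch 1 and the others batch 2. No cage held both genotypes, so that cage and genotype cannot be told apart. Which genes respond to LPS, and how the response differs without CPEB4, is the question that the design addresses.

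CXCL9, CXCL10 and CXCL11 bind CXCR3, a receptor of activated T cells and NK cells, and draw these cells into inflamed tissue. Their genes lie side by side and are classical targets of interferon signalling: Cxcl9 depends mostly on interferon gamma, while Cxcl10 is also switched on early by NF-kB and IRF factors downstream of TLR4, the LPS receptor. CXCL11 is also bound by the scavenging receptor ACKR3, and the protease DPP4 trims all 3 chemokines to forms that signal poorly.

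The values are rlog values, a log2 scale of normalised read counts on which low counts are drawn towards the gene's mean, so that differences of low genes are understated. All 3 members passed the filter on low values, which kept genes whose mean rlog was not below log2 of 5, in every comparison. The table gives no sequencing depth, and the precision of each value is therefore read from the spread over the 4 mice of a group. No pair of libraries held identical values, and Pearson's r across genes was 0.998 to 0.999 over the 60 pairs of libraries of one group. The macrophage markers (7 of 7) were at an rlog of 8.89 or more in every library, while the B cell markers were at -1.05 to 2.10. T and NK cell markers were at -0.74 to 1.56 in WT and at -0.73 to 3.58 in Cpeb4-/- libraries. Of these 6 markers, Klrb1c passed the filter over the Cpeb4-/- libraries but not over the WT libraries. Neutrophil and granulocyte precursor markers were at -2.34 to 5.00, stromal markers at 0.01 to 4.62 and dendritic cell markers at 0.81 to 7.06. The Cpeb4 gene total ranged from 7.03 to 10.88 in WT and from 6.88 to 9.66 in Cpeb4-/- libraries, and was lower in Cpeb4-/- by an adjusted test at 6 hr (-1.27 ± 0.19, SE, adjusted p = 0.00114, limma) but not at the other times. A gene total also holds reads of any part of the gene left in the Cpeb4-/- mice, so that it does not check the labels at every time.

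The 3 genes lie on the minus strand of chromosome 5 in mm10. Cxcl9 (ENSMUSG00000029417) spans chr5:92321347-92328079, Cxcl10 (ENSMUSG00000034855) chr5:92346638-92348889 and Cxcl11 (ENSMUSG00000060183) chr5:92359544-92365485. Cxcl10 and Cxcl11 lie within the span of Art3, a gene of the plus strand, and 133 of the 2252 exonic bases of Cxcl10 are also exonic in Art3, while Cxcl11 shares no exonic base with it. The library kit does not mark the strand, so that reads from those bases cannot be told apart by strand. The overlap is that of GENCODE M21, and the annotation used to count the deposited values was not compared with it. Art3 was low, with group means of 2.09 to 4.01.

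GENCODE M21 lists Cxcl9 and Cxcl10 as protein coding and Cxcl11 as a polymorphic pseudogene. Its coding model of Cxcl11, Cxcl11-201, leaves out 2 bases of the reference (chr5:92363177-92363178), and in that model the reading frame runs for 99 codons. In Cxcl11-202, which keeps these bases, the frame from the same start codon meets a stop after 36 codons. The stretch is printed, in the direction of the mRNA, since it sets the annotation of this gene apart from that of the other two, with the 2 bases in capitals. The alleles of these mice at this place were not analysed here.
Cxcl11 chr5:92363163-92363192, minus strand: tagccctggctgcaATatctgggccacagc

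Promoters of 300 bases (250 before the start and 50 after it) were taken from RefSeq (GRCm38.p6) for Cxcl9 and Cxcl10, and were searched on both strands for the letters of 4 elements. These were the core of the interferon-stimulated response element (ISRE, GAAA and again GAAA after a gap of 2 bases), the interferon gamma activated site (GAS, TTCNNNGAA), the AP-1 site (TGANTCA) and the kappaB site of NF-kB. Over the 32851 promoters of the table, the ISRE core was present in 3.44%, GAS in 8.30%, AP-1 in 7.81% and kappaB in 8.46%. The Cxcl10 promoter held 1 ISRE core, 213 bases before the start, kappaB matches at 159, 104 and 103 bases before it (the latter pair overlapping) and 1 AP-1 match at 74 bases before it. The Cxcl9 promoter held 1 AP-1 match, 31 bases after the start, and the letters of the other elements were not in this window. The matches are shown because the time courses of these genes are commonly read against these elements. Each match is in capitals within its flanks.
Cxcl10 ISRE core, chr5:92349083-92349112, minus strand: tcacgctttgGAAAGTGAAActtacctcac
Cxcl10 kappaB, chr5:92349029-92349058, minus strand: agaggggagaGGGAAATTCCaagttcatgg
Cxcl10 kappaB, chr5:92348974-92349003, minus strand: tcggtttacaGGGGACTTCCctcgggttgc
Cxcl10 AP-1, chr5:92348946-92348974, minus strand: cggagccttgcTGAGTCAtctccaaagtc
Cxcl9 AP-1, chr5:92328031-92328059, minus strand: ctccaacacagTGACTCAatagaactcag

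CPEB4 binds cytoplasmic polyadenylation elements (CPEs) in 3′UTRs, and AU-rich elements (ARE, ATTTA) are known as sites of rapid mRNA decay. The longest annotated 3′UTR of each gene was searched for ATTTA and for CPEs, with overlapping matches counted. As CPEs counted TTTTAT with its longer forms TTTTAAT and TTTTAAAT, the forms TTTTACT and TTTTCAT, TTTTAAGT, and finally TTTTGT. Cxcl9 (2452 bases) held 3 ATTTA and 6 CPE matches. Cxcl10 (996 bases) held 3 ATTTA and 2 CPE matches. Cxcl11 (1218 bases) held 1 ATTTA and 7 CPE matches, of which 4 lay in a run of repeated TTTTG. At least as many CPE matches were present in 61.5%, 66.7% and 16.9% of the 3′UTRs of similar length (0.8 to 1.25 times) for Cxcl9, Cxcl10 and Cxcl11, respectively. At least as many ATTTA were present in 70.1%, 30.8% and 80.9%. The matches to TTTTAT and TTTTAAT, the usual form of the CPE, are printed in capitals for each gene, with the position counted from the first base after the stop codon.
Cxcl9 position 97, chr5:92323685-92323713, minus strand: aatacataggcTTTTAATacattaactca
Cxcl9 position 1068, chr5:92322715-92322742, minus strand: tttaaagaaagTTTTATatctggctgtc
Cxcl9 position 2361, chr5:92321421-92321449, minus strand: tgtactctaatTTTTAATtcaaagcaaat
Cxcl10 position 823, chr5:92346962-92346989, minus strand: tacctgagctcTTTTATttcagatgtaa
Cxcl11 position 513, chr5:92360236-92360263, minus strand: tgtacgtctggTTTTATcagtgacaata

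All 3 mRNAs were induced by LPS in both genotypes, each with its own course. Cxcl10 had the largest first-hour rise and its mean was highest at 3 hr. Cxcl9 was highest at 6 hr in all 8 mice. Cxcl11 rose most between 1 and 3 hr and was highest at 3 or 6 hr, depending on the mouse. Cxcl9 was lower in Cpeb4-/- than in WT macrophages from 3 hr on, by about the same amount at 3, 6 and 9 hr.

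**Figure D1:**
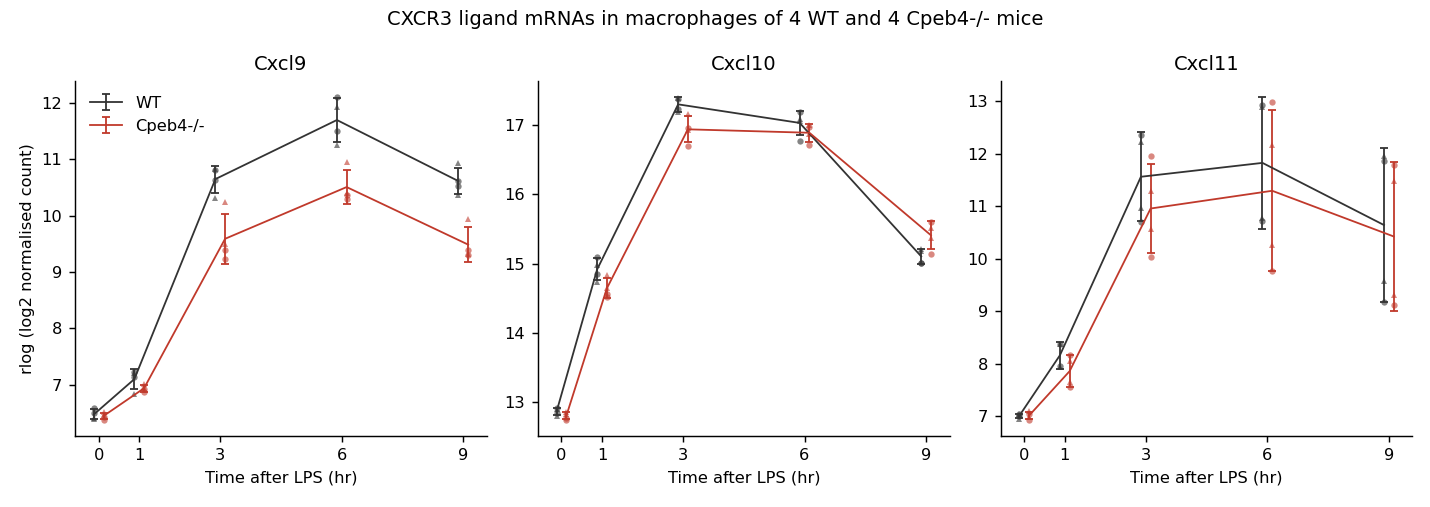
rlog values (log2 of normalised count) of Cxcl9, Cxcl10 and Cxcl11 against time after LPS in hr, with WT in grey and Cpeb4-/- in red. Points are single mice (circles batch 1, triangles batch 2), lines join the means of 4 mice and bars are SD. The Cpeb4-/- points of Cxcl9 lie below all WT points at 3, 6 and 9 hr, while the Cxcl11 points run from 10.71 to 12.92 in WT and from 9.76 to 12.98 in Cpeb4-/- at 6 hr.

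In WT macrophages, Cxcl9 was near its lowest level before LPS, at 6.59, 6.40, 6.41 and 6.50 (mice 25, 69, 87 and 88). It was at 7.14, 6.84, 7.20 and 7.22 at 1 hr and at 10.81, 10.31, 10.83 and 10.63 at 3 hr. The groups of the 3 times did not overlap. At 6 hr it was at 11.51, 11.93, 11.25 and 12.10, and at 9 hr at 10.53, 10.93, 10.38 and 10.62. The mean thus rose 37.4-fold from 0 to 6 hr on the rlog scale (5.23 ± 0.40, SD of the change over 4 mice) and fell by 1.08 ± 0.27 to 9 hr, in 4 of 4 mice. Each of the 4 steps between consecutive times passed the test in WT (limma, 0.63, 3.55, 1.05 and -1.08 with adjusted p = 0.00336, 6.5e-14, 7.0e-06 and 7.6e-06). Of all genes tested, 33.9%, 60.1%, 63.7% and 51.4% passed at these steps in WT, so that passing a step was common.

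In Cpeb4-/- macrophages, Cxcl9 was at 6.52, 6.38, 6.46 and 6.42 at 0 hr (mice 2, 3, 55 and 62), within the spread of WT but for 1 value just below it. It was at 7.02, 6.86, 6.95 and 6.92 at 1 hr, a range that overlaps that of WT. At 3 hr it was at 9.50, 9.23, 10.24 and 9.38, and all 4 values were below the lowest WT value. At 6 hr it was at 10.41, 10.37, 10.95 and 10.30, and at 9 hr at 9.32, 9.30, 9.95 and 9.39, again all below WT. Mouse 55 had the highest value of its genotype at each of these 3 times. The rise from 0 to 6 hr was 16.7-fold (4.06 ± 0.29). The 4 steps were 0.49, 2.65, 0.92 and -1.02 (limma, adjusted p = 0.0278, 3.0e-11, 0.000112 and 5.2e-05), beside 43.8%, 64%, 64.4% and 53.6% of all genes that passed in Cpeb4-/-. The first of these was lost without mouse 2, 3 or 62, with adjusted p = 0.0815, 0.0774 and 0.105.

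The genotype difference of Cxcl9 (Cpeb4-/- minus WT, limma, with SE) was -0.03 ± 0.08 at 0 hr and -0.16 ± 0.10 at 1 hr, with adjusted p = 0.865 and 0.237. From 3 hr on it grew to -1.06 ± 0.19, and then stood at -1.19 ± 0.18 (6 hr) and -1.13 ± 0.15 (9 hr), with adjusted p = 0.0197, 0.00122 and 0.00308. WT levels were thus 2.08-, 2.28- and 2.18-fold those of Cpeb4-/-. The exact two-sided permutation test of 4 against 4 mice gave p = 0.0286 at each of the 3 times, the smallest that it allows. Among all genes, 1.31%, 1.91%, 3.68%, 16.3% and 7.91% passed in either direction at 0, 1, 3, 6 and 9 hr, and Cxcl9 was the only member that passed at any time. The 4 Cpeb4-/- values lay below the 4 WT values in 6.58%, 12% and 8.51% of all genes at 3, 6 and 9 hr. Of 7 macrophage markers, 4 (Cd68, Csf1r, Fcgr1 and Lyz2) were lower in Cpeb4-/- at 6 hr and none higher, with a list median of -0.26. At 3 hr 1 of the 7 (Lyz2) was lower and at 9 hr 2 (Cd68 and Fcgr1), with list medians of -0.13 and 0.01. Among all genes, 1.87%, 9.92% and 3.22% were lower at 3, 6 and 9 hr. Of the 2 dendritic cell markers of 4 that passed the filter, Zbtb46 was higher at 3 hr and Xcr1 lower at 6 hr. The summed level of the macrophage markers, on a log2 scale, was 18.88 to 19.32 over WT and 18.55 to 18.98 over Cpeb4-/- libraries, and their part in the result was not tested.

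Within batch 1 the difference was -1.42, -1.47 and -1.24 at 3, 6 and 9 hr, and within batch 2, -0.70, -0.91 and -1.02 (2 mice of each genotype per batch, no test). The call at 3 hr was lost without Cpeb4-/- mouse 2, 3 or 62 or WT mouse 25 (adjusted p = 0.0703, 0.0745, 0.0711 and 0.0614), whereas those at 6 and 9 hr were kept with each mouse left out. The change from 0 hr was smaller in Cpeb4-/- at 6 and 9 hr (interaction, -1.16 ± 0.25 and -1.10 ± 0.25, SE, limma, adjusted p = 0.00705 and 0.0124), beside 2.94% and 1.76% of all genes that passed. At 3 hr the interaction was -1.03 ± 0.25 with adjusted p = 0.0749, and 0.0119 with the mouse as a replicate block, beside 0.206% of genes that passed without the block and 0.549% with it. The 6 hr interaction was lost without Cpeb4-/- mouse 62 (adjusted p = 0.0626), and that at 9 hr without Cpeb4-/- mouse 2, 3 or 62 or WT mouse 69 (adjusted p = 0.0731, 0.0559, 0.0711 and 0.0603).

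**Figure D2:**
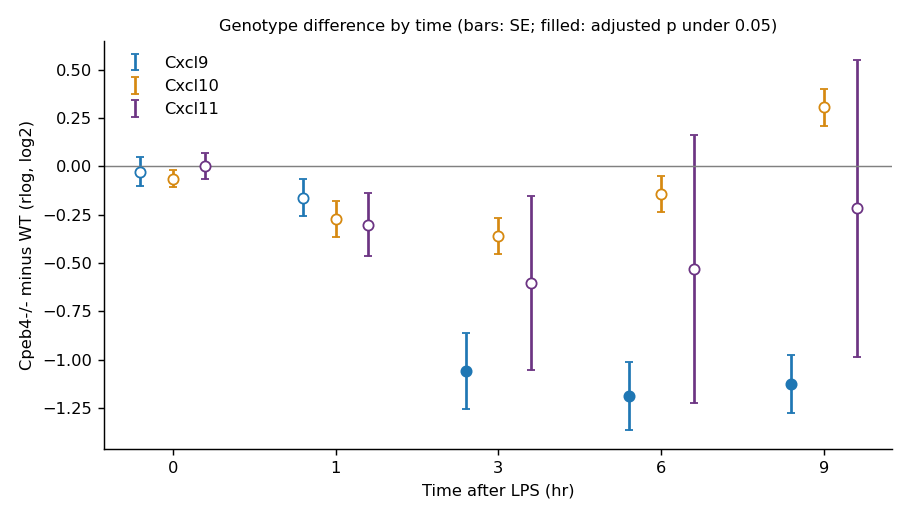
Difference in rlog (log2) between Cpeb4-/- and WT macrophages at each time after LPS in hr, for Cxcl9 (blue), Cxcl10 (orange) and Cxcl11 (purple). Bars are SE and filled points have an adjusted p under 0.05. The filled points are those of Cxcl9 at 3, 6 and 9 hr, between -1.06 and -1.19, and Cxcl10 moves from -0.36 at 3 hr to 0.31 at 9 hr.

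After the peak, a difference between the genotypes in the fall of Cxcl9 was not detectable. The change from 6 to 9 hr was -1.08 ± 0.27 (SD) in WT and -1.02 ± 0.08 in Cpeb4-/-, and the interaction was 0.06 ± 0.25 (SE, limma, adjusted p = 0.938). At 9 hr the mean, back-transformed from the log scale, was 46.4% of its peak in WT (35.8% to 54.5% over mice) and 49.3% in Cpeb4-/- (47.0% to 53.0%). In the order of its 10 group levels, neighbours that did not differ were the 2 groups at 0 hr, the 2 at 1 hr, Cpeb4-/- at 9 and 3 hr, Cpeb4-/- at 6 hr and WT at 9 hr, and WT at 9 and 3 hr. The Cpeb4-/- peak at 6 hr (10.51 ± 0.30) was thus at about the level of WT at 9 hr (10.61 ± 0.23; SD, n = 4), with adjusted p = 0.641 for their difference (limma).

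Cxcl10 had the largest rise of the members within the first hour on the rlog scale, in both genotypes. In WT it was at 12.84, 12.79, 12.90 and 12.91 at 0 hr (mice 25, 69, 87 and 88) and at 14.85, 14.73, 14.98 and 15.09 at 1 hr. It was at 17.38, 17.19, 17.39 and 17.23 at 3 hr, the peak in 4 of 4 WT mice. It then was at 16.78, 17.09, 17.06 and 17.19 at 6 hr and at 15.01, 15.18, 15.21 and 15.01 at 9 hr. The steps of 2.05, 2.38, -0.27 and -1.93 passed the test (limma, adjusted p = 6.5e-14, 2.7e-15, 0.00991 and 1.1e-12). The small fall from 3 to 6 hr was lost without mouse 25 or 87 (adjusted p = 0.158 and 0.0526).

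In Cpeb4-/- macrophages, Cxcl10 was at 12.83, 12.77, 12.86 and 12.75 at 0 hr (mice 2, 3, 55 and 62) and at 14.84, 14.56, 14.65 and 14.52 at 1 hr. At 3 hr it was at 16.94, 16.70, 17.16 and 16.96, and the 4 values lay below the lowest WT value, that of mouse 55 only just. The 4 Cpeb4-/- values lay below the 4 WT values in 6.58% of all genes at this time. The Cxcl10 values overlapped WT again at 6 hr, at 16.87, 16.97, 17.00 and 16.71. At 9 hr the values were 15.37, 15.60, 15.51 and 15.14, of which 3 lay above all WT values. The order of the genotypes in the mean was therefore turned between 6 and 9 hr.

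None of the genotype differences of Cxcl10 passed the test at a single time. They were -0.06 ± 0.05, -0.27 ± 0.09, -0.36 ± 0.10, -0.14 ± 0.09 and 0.31 ± 0.10 (SE) at 0, 1, 3, 6 and 9 hr, with adjusted p = 0.464, 0.0960, 0.0649, 0.336 and 0.0755 (limma). With all 40 libraries in one fit, those at 1, 3 and 9 hr passed (adjusted p = 0.0304, 0.0133 and 0.0227), where 31.9%, 10% and 17.4% of all genes passed in that fit. The exact two-sided permutation test gave p = 0.0571 at 1 hr, 0.0286 (the smallest that it allows) at 3 hr and 0.0857 at 9 hr. Within batches 1 and 2 the difference was -0.48 and -0.24 at 3 hr, and 0.36 and 0.25 at 9 hr. Cxcl10 at 9 hr also passed with batch as a covariate (adjusted p = 0.0462) and without Cpeb4-/- mouse 2 or 62 (adjusted p = 0.0316 and 0.0305), beside 13.7%, 35.2% and 3.51% of all genes that passed in these fits. At 3 hr it passed without Cpeb4-/- mouse 55 or WT mouse 88 (adjusted p = 0.0408 and 0.0305, beside 1.9% and 19.8% of all genes) and at 1 hr without WT mouse 69 (adjusted p = 0.0430, beside 18.6%).

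From 6 to 9 hr, Cxcl10 fell 3.80-fold in WT (-1.93 ± 0.18, SD) and 2.79-fold in Cpeb4-/- (-1.48 ± 0.08). The changes of single mice ran from -2.19 to -1.76 in WT and from -1.56 to -1.37 in Cpeb4-/-, with no overlap (exact two-sided permutation test, p = 0.0286). The share of all genes whose changes separate in this way was not computed. The difference between these changes was 0.45 ± 0.13 (SE), with adjusted p = 0.0731, and 0.0235 with the mouse as a replicate block (limma), where 1.92% of genes passed without the block and 5.62% with it. At 9 hr, 21.8% of the peak was left in WT (19.4% to 24.8% over mice) and 34.6% in Cpeb4-/- (28.5% to 38.7%). From 3 to 6 hr the step was -0.27 in WT, as above, and -0.05 ± 0.10 (SE) in Cpeb4-/- (adjusted p = 0.672), where 1 mouse (3) was highest at 6 hr and 3 at 3 hr. The changes of this step overlapped between the genotypes (difference 0.22, exact two-sided permutation test, p = 0.314).

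**Figure D3:**
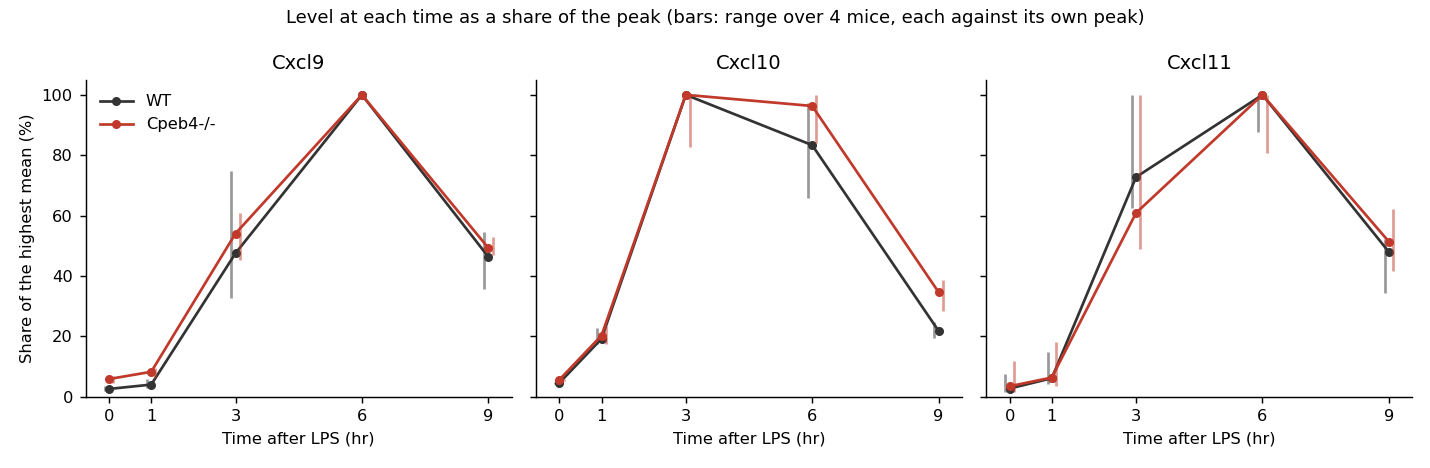
Back-transformed mean level at each time after LPS in hr, as a percentage of the highest mean of the same gene and genotype, with WT in grey and Cpeb4-/- in red. Vertical bars span the 4 mice, each scaled to its own highest time. For Cxcl10 at 9 hr, WT stands at 21.8% and Cpeb4-/- at 34.6%, and Cxcl9 at 9 hr is at 46.4% and 49.3%.

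In the order of the Cxcl10 levels, the steps without a difference were those between the 2 groups at 0 hr, between WT at 1 hr and WT at 9 hr, between Cpeb4-/- at 6 and 3 hr, and between Cpeb4-/- at 3 hr and WT at 6 hr. The second of these, 0.19 on the log2 scale, had adjusted p = 0.0727, and 0.0417 with the mouse as a replicate block (limma). By 9 hr WT Cxcl10 was thus close to its 1 hr level, at 15.10 ± 0.11 against 14.91 ± 0.16 (SD, n = 4).

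Levels were compared between the genes per kilobase of 1 coding transcript each (2889 bases for Cxcl9-201, 1094 for Cxcl10-201 and 1581 for Cxcl11-201). With Cxcl10-202, of 1353 bases, the Cxcl10 folds would be 1.24 times smaller. Per kilobase, Cxcl10 was 222-fold above Cxcl9 in WT at 0 hr, 595-fold at 1 hr and 59.3-fold at 9 hr. In Cpeb4-/-, the same ratio was 216-fold, 550.4-fold and 160-fold. The log2 ratio in single mice at 9 hr was 5.65 to 6.24 in WT and 6.97 to 7.71 in Cpeb4-/-, ranges that did not overlap. This ratio joins the genotype differences of Cxcl9 (-1.13) and Cxcl10 (0.31) at 9 hr given above, and is not a separate result. How often other pairs of genes separate in this way was not computed. As low counts are drawn in by the rlog scale, the ratio at 0 hr is the least certain.

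Cxcl11 differed between mice more than between genotypes. Before LPS all 8 mice lay within 0.17 of each other, at 7.04, 6.95, 7.03 and 7.00 in WT (mice 25, 69, 87 and 88) and at 7.10, 6.93, 6.98 and 7.03 in Cpeb4-/- (mice 2, 3, 55 and 62). At 1 hr it was at 8.37, 7.93, 8.38 and 7.95 in WT, and at 8.05, 7.56, 7.64 and 8.17 in Cpeb4-/-. The 4 highest mice were then already those that were highest later on.

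At 3 hr, Cxcl11 was at 12.36, 10.96, 12.21 and 10.70 in WT and at 11.28, 10.03, 10.56 and 11.95 in Cpeb4-/-. At 6 hr it was at 12.92, 10.77, 12.89 and 10.71 in WT and at 12.17, 9.76, 10.25 and 12.98 in Cpeb4-/-. At 9 hr it was at 11.86, 9.57, 11.95 and 9.17 in WT and at 11.48, 9.11, 9.30 and 11.79 in Cpeb4-/-. The 4 mice with the highest values at 6 hr (WT 25 and 87, Cpeb4-/- 62 and 2) were the 4 highest at every other time as well, 0 hr included, where the gap between the fourth and the fifth mouse was 0.03. This gap was 1.40 at 6 hr and 1.91 at 9 hr, in a whole range of 3.21 and 2.84. Each pair of one genotype and one batch held 1 mouse of the upper 4 and 1 of the lower 4, and WT mice 87 and 88, of 1 cage, as well as Cpeb4-/- mice 2 and 3, of another, fell on different sides.

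Such a spread within a group was rare. At 6 hr the SD of Cxcl11 was 1.25 in WT and 1.53 in Cpeb4-/- (n = 4), where the median SD over 13039 genes was 0.09 and 0.10, and 11 and 3 genes had a larger one. The SD of Cxcl9 was 0.39 and 0.30, and that of Cxcl10 0.18 and 0.13. The upper and lower mice of Cxcl11 were not those of Cxcl9, for which WT mice 88 and 69 were the highest of all at 6 hr. The mice of the upper side reached their peak at 6 hr, 4 of 4, while of the others 1 WT mouse and 2 Cpeb4-/- mice peaked at 3 hr.

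**Figure D4:**
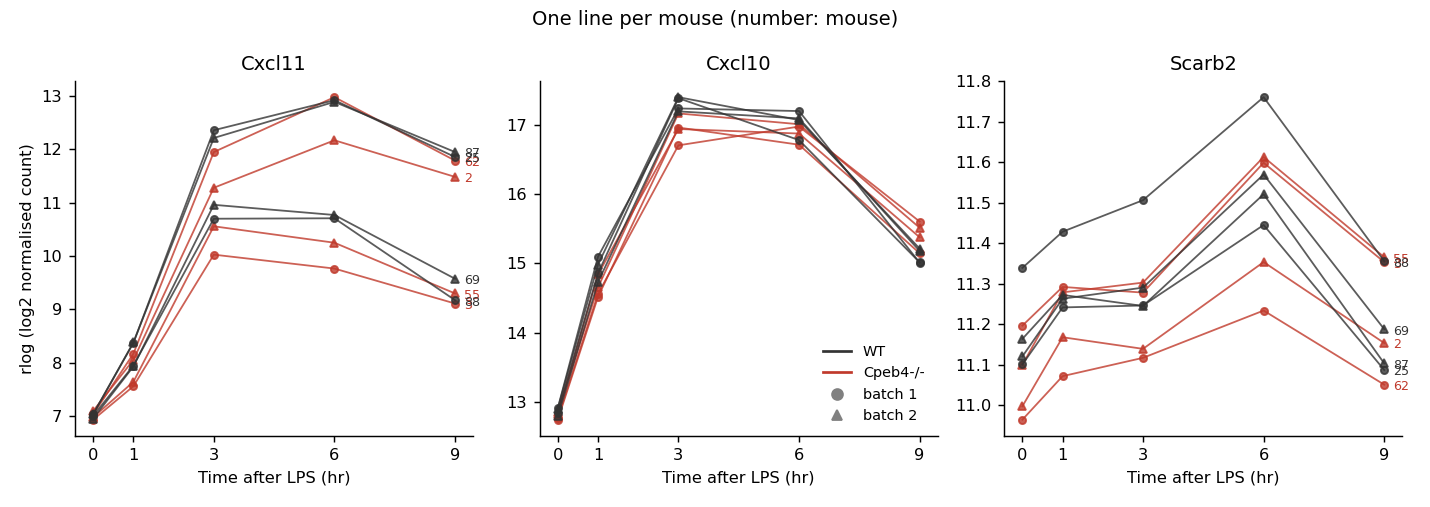
rlog values (log2 of normalised count) of Cxcl11, Cxcl10 and the neighbouring gene Scarb2 against time after LPS in hr, with 1 line per mouse, WT in grey and Cpeb4-/- in red, circles for batch 1 and triangles for batch 2. Numbers at 9 hr name the mice. The Cxcl11 lines part into 4 at 11.48 to 11.95 and 4 at 9.11 to 9.57 at 9 hr with both genotypes on each side, which the Cxcl10 lines do not.

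With that spread, no genotype difference of Cxcl11 passed the test. It was 0.00 ± 0.07, -0.30 ± 0.16, -0.60 ± 0.45, -0.53 ± 0.70 and -0.22 ± 0.77 (SE, limma) at 0, 1, 3, 6 and 9 hr, with adjusted p = 0.987, 0.202, 0.427, 0.657 and 0.880. The interactions with time had adjusted p = 0.833 or more, and differences of the size seen for Cxcl9 could not be told from the spread. The step from 1 to 3 hr passed in both genotypes, by 3.40 ± 0.59 in WT and 3.10 ± 0.62 in Cpeb4-/- (SE, limma, adjusted p = 4.4e-05 and 0.000193). The step from 0 to 1 hr (1.15) and that from 6 to 9 hr (-1.18) had adjusted p = 0.147 and 0.101 in WT, and 0.0184 and 0.0106 with the mouse as a replicate block, a fit in which 40.3% and 57.1% of all genes passed. In Cpeb4-/- these steps were 0.85 and -0.87, with adjusted p = 0.294 and 0.251, and 0.0732 and 0.0571 with the block. All 8 mice rose from 0 to 1 hr and fell from 6 to 9 hr. Of the steps in the order of the Cxcl11 levels, 1 passed the test, that from WT at 1 hr to Cpeb4-/- at 9 hr.

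The genes beside the cluster were Naaa, Sdad1, Art3, Nup54 and Scarb2. Naaa, an amidase of lysosomes, was higher in Cpeb4-/- at 0 hr (0.30, adjusted p = 0.0369, limma), and Nup54, of the nuclear pore, at 6 hr (0.19, adjusted p = 0.0193). The other 3 passed at no time tested. Among all genes, 1.31% passed in either direction at 0 hr and 6.4% were higher at 6 hr. In WT, Sdad1 rose from 9.46 at 1 hr to 10.90 at 3 hr and Art3 from 2.35 to 3.56 (adjusted p = 9.1e-14 and 1.3e-06). At the exonic bases that Art3 shares with Cxcl10 in GENCODE M21, reads of Cxcl10 cannot be told from those of Art3 by strand. The part of such reads in the rise of Art3 was not tested. Scarb2, a lysosomal membrane protein gene on the far side of Nup54 from Cxcl11, moved against Cxcl11 over the mice. At 6 hr it was at 11.45, 11.57, 11.52 and 11.76 in WT (mice 25, 69, 87 and 88) and at 11.35, 11.60, 11.61 and 11.23 in Cpeb4-/- (mice 2, 3, 55 and 62). The 4 mice with the highest Cxcl11 were the 4 with the lowest Scarb2 at 3, 6 and 9 hr, although the gap between both sides was small. At 6 hr the same 4 mice were also the 4 lowest for Naaa, at 11.95 to 12.02 against 12.09 to 12.22 in the others. They were the 4 highest for Sdad1, at 10.86 to 10.96 against 10.74 to 10.78. At 3 and 9 hr the sides overlapped for both of these genes. These sides were set by the Cxcl11 values, and the share of all genes that separate the same mice was not computed. The part of these neighbours in the spread of Cxcl11 was not tested.

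Of the genes that act on the ligands, untreated WT cells held Cxcr3 mRNA at a mean of 6.62 and untreated Cpeb4-/- cells at 6.30, and these means fell to 3.99 and 4.15 by 6 hr. The falls from 1 to 3 hr (-0.65 and -0.82) and from 3 to 6 hr (-1.85 and -1.26) passed in both genotypes (limma, adjusted p = 3.3e-05 at most), and no genotype difference of Cxcr3 passed (adjusted p = 0.0827 to 0.634). Dpp4, with group means of 1.76 to 2.31, and the scavenging receptor genes Ackr1, Ackr2, Ackr3 and Ackr4 (-2.40 to 1.04) were below the filter. In a bulk culture, fewer cells of a type and less RNA per cell cannot be told apart.

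Of the interferons, Ifnb1 was the only one above the filter, while group means of Ifng (-0.47 to 0.42), Ifna4 (-1.33 to -0.65) and Ifna2 (-1.80 to -1.40) stayed low. Ifnb1 rose from 3.64 to 8.34 in WT within 1 hr and from 3.76 to 7.63 in Cpeb4-/-, before any of the members peaked. It was lower in Cpeb4-/- at 3 hr (-0.66 ± 0.13, SE, adjusted p = 0.0306, limma), while the difference of -0.71 ± 0.25 at 1 hr did not pass (adjusted p = 0.0965). Of the receptor genes, Ifngr1 was higher in Cpeb4-/- at 6 hr (0.18, adjusted p = 0.0174) and Ifngr2 lower at 9 hr (-0.23, adjusted p = 0.0255), while Ifnar1 and Ifnar2 passed at no time. Among all genes, 1.87% were lower at 3 hr, 6.4% higher at 6 hr and 3.22% lower at 9 hr. Of 8 genes of the JAK-STAT and IRF list, 3 were lower in Cpeb4-/- at 6 hr, beside 9.92% of all genes, and none at the other times. The list median at 6 hr was -0.14 against -0.02 over all genes. The genes lower were Tyk2 (-0.41), a kinase of the interferon receptors, and Stat2 (-0.20) and Irf9 (-0.14), parts of the factor that binds ISREs. Irf1, Irf8, Jak1 and Jak2 did not pass, with -0.15 for Irf1 at 6 hr (adjusted p = 0.105, limma).

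Genes of the interferon target lists were also lower in Cpeb4-/- at 6 hr. Of 10 type I interferon-stimulated genes, 5 were lower at 3 hr and 9 at 6 hr, with list medians of -0.40 and -0.42 against 0.01 and -0.02 over all genes, and none was higher. The largest differences were those of Rsad2 at 3 hr (-0.66) and Cmpk2 at 6 hr (-0.61). At 9 hr 2 were lower, with a median of -0.13. Of 10 targets typical of interferon gamma, 8 were lower at 6 hr (median -0.25), led by Iigp1 (-0.84), a GTPase of the defence against vacuolar pathogens, and 2 were lower and 1 higher at 9 hr. These shares stand beside 9.92% of all genes lower at 6 hr and 1.87% at 3 hr. At 9 hr 3.22% of all genes were lower and 4.69% higher.

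Among the other regulators, Cd14, the LPS co-receptor, was the 1 TLR4 and TRIF arm gene of 10 that was lower in Cpeb4-/- at 0, 1 and 3 hr, that is, also in untreated cells. Its differences there were -0.32, -0.38 and -0.30 (adjusted p = 0.0458, 0.0135 and 0.0457, limma), and at 6 hr -0.22 (adjusted p = 0.0543). At 6 hr 3 of the 10 were lower, led by Ikbke (-0.26), and at 9 hr 2, Cd14 (-0.38) and Ikbke (-0.25). None was higher at any time. Of the 5 NF-kB subunit genes, Nfkb1 was higher (0.21) and Rela lower (-0.14) at 6 hr, and Rela was also lower at 9 hr. Of 10 feedback and mRNA decay genes, 1 was higher and 4 were lower at 6 hr, of which Cpeb4 had the largest difference. At 9 hr 3 of these were higher and 1 lower. Of all genes, 4.69% passed in the higher and 3.22% in the lower direction at 9 hr, and 6.4% and 9.92% at 6 hr. At 0, 1 and 3 hr, 1.31%, 1.91% and 3.68% of all genes passed in either direction. Some genes were counted in more than 1 list. Irf7 was among the TLR4 and TRIF arm genes lower at 6 hr. Usp18 was among the feedback genes lower at 6 and 9 hr. Both were also counted at these times with the type I interferon-stimulated genes.

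Among the chemokines followed here, the CXCR2 ligands, which draw neutrophils, were the contrast to Cxcl9. Of 4 (Cxcl1, Cxcl2, Cxcl3 and Cxcl5), 3 were higher in Cpeb4-/- at 3 hr and 3 at 6 hr, with list medians of 0.64 and 1.02, beside 1.81% and 6.4% of all genes that were higher. Cxcl3 had the largest difference, 1.80 ± 0.17 at 6 hr (SE, limma, adjusted p = 8.1e-05). At 9 hr 1 of the 4 (Cxcl3) was higher, beside 4.69% of all genes, and Cxcl2 passed at no time. Of the 4, 2 peaked at 1 hr and 2 at 3 hr in both genotypes, whereas of the type I interferon-stimulated genes all 10 peaked at 6 hr in WT and 9 in Cpeb4-/- (1 at 3 hr), the peak time of Cxcl9.

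By time course, over the 40 libraries, the genes whose rlog was most like that of Cxcl9 were A530032D15Rik, Batf2, Pla1a, Ogfr and Rsad2 (Pearson's r = 0.990, 0.987, 0.986, 0.981 and 0.981 over 12951 genes). Those most like Cxcl10 were Cd69, Il6, Arid5a, Ube2f and Il27 (0.984, 0.983, 0.982, 0.982 and 0.980). The members resembled each other less, with r = 0.853 between Cxcl9 and Cxcl10, 0.862 between Cxcl9 and Cxcl11 and 0.832 between Cxcl10 and Cxcl11, and Cxcl9 ranked 744 among the genes most like Cxcl10. For Cxcl11 the nearest were Tha1, Pgs1, Gm6548, Tnfrsf9 and Tspyl3, at 0.921, 0.916, 0.911, 0.910 and 0.908. The 40 points share 8 mice and 5 times, so that r mostly compares the time courses and is a description.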

How the data were processed

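Poly(A) RNA of BMDMs was sequenced, and per the labels and the methods the authors aligned reads to mm10 with STAR 2.3.0e, counted them with featureCounts and deposited 1 table of rlog (log2) values made with DESeq2, with no count or depth. Groups, mice and batches were taken from the labels. No value column was left unused.

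Genes whose mean rlog over the compared libraries was not below log2 of 5 were tested with limma 3.58.1 (trend, R 4.3.3), with Benjamini-Hochberg adjustment over all genes tested and 0.05 as threshold: the genotype difference at each time in its 8 libraries, the steps between times within a genotype, and the genotype by time interaction and the order of levels in all 40 libraries. The study's count test could not be run on rlog values. Single values were tested by exact two-sided permutation of mice (scipy 1.17.1). The fits were tested on simulated data. Shares of the peak were computed from back-transformed values.

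The libraries of 1 mouse at 5 times are paired by the labels. Their deviations from the group means had a median correlation of 0.29, above 0.1 in 68 of 80 pairs, against -0.09 between mice. As deviations cancel out within a group, the value between mice follows from the other and is not a separate comparison. Because of the pairing, blocked values stand beside results that they change.

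The 3 members, the gene lists and the motifs were chosen with earlier results of these data known. Genes named beside the members were those of the receptor, neighbour, interferon and JAK-STAT lists, the gene with the largest difference among those that pass in other lists, and the 5 genes most like each member. One gene of the JAK-STAT list is not reported here. P-values measure the spread between these mice.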

Additional observations from a re-analysis of the deposited data

Results flagged for a closer look

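In Cpeb4-/- macrophages, mouse 55 stood apart from the other 3 mice for Cxcl9 at 6 hr (10.95) and at 9 hr (9.95), where its distance to the nearest mouse was a larger share of the group's range than the critical value for 4 samples. Chance marks about 1 in 20 such groups, and 30 groups of 4 were examined. Without mouse 55 the genotype difference of Cxcl9 was -1.34 at 6 hr and -1.28 at 9 hr.

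The change of Cxcl9 from 0 hr differed between the genotypes at 6 hr (-1.16) and at 9 hr (-1.10) by the interaction test of limma, with adjusted p = 0.00705 and 0.0124.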

How the results depend on the processing

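Of 723 alternative values of 63 results, 670 were counted as unchanged. For the tests, this meant the same direction and the same side of the threshold. For shares of the peak, it meant a move smaller than the SD over mice. For the order of levels, it meant a similar count of neighbouring pairs that differ, even where the call of a single pair changed. The Cxcl9 genotype differences at 6 and 9 hr kept theirs under every alternative run. That at 3 hr (-1.06) did not pass without a filter or with eBayes without trend. In the joint fit of all 40 libraries, both without and with the replicate block, Cxcl10 differences passed at 1 hr (-0.27), 3 hr (-0.36) and 9 hr (0.31), the last also with batch as a covariate and at 0.43 with quantile normalization. Quantile normalization also let the Cxcl10 interactions at 9 hr against 0 hr (0.47) and 9 hr against 6 hr (0.49) pass, and turned the sign of 2 differences that never passed, Cxcl11 at 0 hr (-0.035) and the Cxcl9 interaction of 9 against 6 hr (-0.049). Without a filter, the Cxcl9 step from 0 to 1 hr in Cpeb4-/- (0.49) did not pass. The replicate block let pass the Cxcl9 interaction at 3 hr (-1.03), the Cxcl10 interaction of 9 against 6 hr (0.45) and the WT Cxcl11 steps from 0 to 1 hr (1.15) and 6 to 9 hr (-1.18), and changed no other call of these tests but the order of WT Cxcl10 at 1 and 9 hr. The cause of these changes was not tested.

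With each mouse left out in turn, the genotype difference of Cxcl9 ran from -0.052 to 0.012 at 0 hr and from -1.28 to -0.94 at 3 hr. That of Cxcl10 ran from -0.34 to -0.21 at 1 hr, from -0.43 to -0.28 at 3 hr and from 0.24 to 0.39 at 9 hr. Differences that did not pass also moved, that of Cxcl10 at 6 hr from -0.23 without WT mouse 25 to -0.082 without Cpeb4-/- mouse 62, and that of Cxcl11 from -0.94 to -0.30 at 3 hr and from -1.09 to -0.023 at 6 hr, in each case without Cpeb4-/- mouse 62 and mouse 3. The Cxcl11 difference changed sign at 0 and 9 hr, from -0.027 to 0.028 at 0 hr and from -0.71 to 0.22 at 9 hr (0.22 without Cpeb4-/- mouse 3, 0.16 without 55, 0.19 without WT mouse 25 and 0.22 without 87). The Cxcl9 step from 0 to 1 hr in Cpeb4-/- ran from 0.49 to 0.50, and the Cxcl10 steps from 3 to 6 hr from -0.16 to 0.017 in Cpeb4-/- and from -0.35 to -0.16 in WT. The Cxcl9 interactions ran from -1.24 to -0.93 at 3 hr, from -1.31 to -1.03 at 6 hr, from -1.25 to -0.97 at 9 hr and from -0.070 to 0.13 for 9 against 6 hr, and the Cxcl11 interaction at 9 hr from -0.71 to 0.21. The shares of the peak moved by less than the spread over mice. The table gives no depth, and groups of 4 limit what the tests can show.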
